A study of Mus musculus with 3 samples.

Results

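Ligands, secreted antagonists, a co-receptor and target genes of the bone morphogenetic protein (BMP) and transforming growth factor beta (TGF-beta) pathways were followed across the cell classes of the developing mouse urogenital tract. The 10 genes were taken by name from 9781 gene rows of a single cell RNA-seq table, and all 10 had a row. They were the ligands *Bmp2*, *Bmp7*, *Inhbb*, *Tgfb1* and *Tgfb2*, the antagonists *Grem1* and *Chrdl1*, the co-receptor *Tgfbr3*, and the targets *Id1* and *Id3*. The cells came from 3 mouse tissues labelled normal, with 1 library each, namely male urogenital sinus, the embryonic tissue that gives rise to the prostate, of stage E18.5, and postnatal prostate of stages P14 and P35. Genotype, strain and pooling of animals are not stated in the labels of these samples, although the study's methods describe its mice as a mixed background of C57BL/6 and 129S1/SvImJ. The table also has a row for the reporter EGFP, which was not examined here, so the cells may carry a reporter transgene. The table pooled 14573 cells whose barcodes ended in 1, 2 or 3. Since the labels do not link the endings to tissues, the endings are called sets 1, 2 and 3, no set was assigned to an age, and values are given side by side. With 1 library per set there was no test, and each interval covers counting error only.

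BMPs and TGF-betas are secreted dimers that bind pairs of serine/threonine kinase receptors, which phosphorylate SMAD proteins, BMP receptors acting mainly through SMAD1, SMAD5 and SMAD9 and TGF-beta and activin receptors through SMAD2 and SMAD3. Extracellular antagonists of the gremlin and chordin families bind BMPs and keep them from their receptors. In the prostate and its embryonic precursor, BMP and TGF-beta ligands of the stroma are known to restrain epithelial growth and branching, and *Id1* and *Id3*, which encode inhibitors of basic helix-loop-helix factors, are among the genes that BMP signals induce most directly.

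After 97 cells with fewer than 200 genes were left out of set 3, sets 1, 2 and 3 held 766, 5350 and 8360 cells. Set 1 stood apart in depth, with a median of 19357 UMIs (unique molecular identifiers, each counting 1 captured molecule) per cell against 1738 in set 2 and 1788 in set 3. Only 14 barcodes occurred in more than 1 set. Clustering gave 13 clusters, which were named by marker lists. Epithelium-like cells (139, 1540 and 2860 cells in sets 1, 2 and 3) comprised clusters 3, 4 and 5, fibroblast-like cells (349, 1676 and 2632) clusters 1 and 2, and smooth muscle-like cells (96, 1602 and 1962) cluster 0. Endothelium-, pericyte-, glia-, leukocyte- and neuron-like cells made 1 cluster each. Own markers carried by a named cluster ranged from 8 of 14 (cluster 3) to 14 of 14 (cluster 4) for epithelium, 10 and 11 of 12 for fibroblasts, and were 8 of 8 for smooth muscle, 11 of 11 for endothelium, 6 of 7 for pericytes, 7 of 7 for glia, 14 of 14 for leukocytes and 9 of 9 for neurons. Markers of other classes were carried too, as the pericyte-like cluster carried 7 of 12 fibroblast and 7 of 8 smooth muscle markers, the smooth muscle-like cluster 8 of 12 fibroblast markers, the glia-like cluster 4 of 12 fibroblast markers and the neuron-like cluster 4 of 7 pericyte markers. *Acta2* and *Myh11*, defining genes of smooth muscle, have no row in the table used here. The summed smooth muscle list stood at 5049 CPM (UMIs per 1000000 UMIs) in smooth muscle-like cells of set 1, compared with 28727 and 28079 CPM in sets 2 and 3. The same cells of set 1 had 5336 CPM of the fibroblast list and 5075 CPM of an erythroid list (62.8 and 9.96 CPM in sets 2 and 3), and when cells were classed one by one only 22 of the 96 kept the name, so that the name is weak in set 1. Of fibroblast-like cells of set 1, 186 of 349 kept theirs. Without integration of the sets only 4 cells of set 1 were smooth muscle-like and 6 fibroblast-like, so the stromal values of set 1 rest on that integration. Epithelium-like cells of set 2 also numbered 417 in place of 1540 without it. Clusters 9, led by mitosis genes, and 10, led by *Wfdc15b* and *Folr1*, stayed unnamed. Cluster 9 carried 10 of 12 fibroblast and 7 of 8 smooth muscle markers, and cluster 10 carried 14 of 14 epithelium markers. The 33, 41 and 103 cells of cluster 10 in sets 1, 2 and 3 are not part of the epithelium-like values. Erythroid, skeletal muscle and mesothelial lists had at most 1 marker carried in any cluster, although the erythroid list, which holds haemoglobin genes, also stood at 4214 CPM in endothelium-like cells of set 2.

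*Bmp2*, on chromosome 2 (GRCm38.p6, 133552159 to 133562896), encodes a BMP ligand that signals through SMAD1 and SMAD5. Its level was 111 CPM in fibroblast-like cells of set 1 (95% Poisson interval 103 to 119), 152 CPM in set 2 (137 to 168) and 242 CPM in set 3 (226 to 258). Epithelium-like cells had 31.5, 46.0 and 23.0 CPM in sets 1, 2 and 3, which was 3.52-fold lower than fibroblast-like cells in set 1 (3.01 to 4.14), 3.31-fold lower in set 2 (2.87 to 3.82) and 10.5-fold lower in set 3 (9.33 to 11.9). Fibroblast-like cells were thus highest in each set, yet in set 1 their interval overlapped those of smooth muscle-like cells (103 CPM) and endothelium-like cells (101 CPM). In sets 2 and 3 smooth muscle-like cells had 115 and 55.9 CPM, below the fibroblast-like interval in both.

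Within fibroblast-like cells, *Bmp2* followed the clusters. Cluster 1 was led by *Lamc3*, *Mmp2*, *Col15a1*, *Mgp* and *Tcf21*, and cluster 2 by *Ptx3*, *Dpt*, *Lum* and *Col3a1*. *Bmp2* stood at 170, 233 and 366 CPM in cluster 1 of sets 1, 2 and 3 and at 54.2, 88.7 and 87.0 CPM in cluster 2, a difference of 3.14-fold (2.66 to 3.72), 2.62-fold (2.11 to 3.27) and 4.20-fold (3.51 to 5.05). A *Bmp2* UMI was seen in 45.3%, 22.8% and 27.6% of cluster 1 cells and in 42.6%, 11.8% and 9.60% of cluster 2 cells as sequenced. With each cell thinned at random to 900 UMIs, so that depth was equal, the shares were 13.1%, 16.2% and 23.3% compared with 6.08%, 6.23% and 5.56%. Leukocyte-like cells, taken as a measure of free RNA, had a UMI in 0%, 4.35% and 2.38% of thinned cells (0 of 38, 1 of 23 and 4 of 168), with exact 95% intervals up to 9.25%, 21.9% and 5.98%. The interval of cluster 1 was clear of these in set 3 (21.0% to 25.8%) and overlapped them in sets 1 (8.72% to 18.6%) and 2 (13.5% to 19.2%). The thinned shares of epithelium-like cells, 4.35%, 3.66% and 2.09%, lay within the leukocyte-like interval in each set. The level in cluster 1 was the highest of any cluster with at least 20 cells in sets 1, 2 and 3. Across clusters and sets with at least 20 cells (34 points), the rates most like that of *Bmp2* belonged to *Lamc3* (Pearson r = 0.81 on the log2 scale, centred within each set), *Dkk2* (r = 0.79) and *Mgp* (r = 0.78). *Lamc3* and *Mgp* were themselves leading genes of cluster 1, and the points share libraries.

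*Bmp7* (chromosome 2, 172868012 to 172940321), a ligand of the same SMAD branch, took opposite orders in the sets when each class was summed over its clusters. In set 1 it stood at 34.3 CPM in fibroblast-like cells (30.1 to 39.0) and 15.1 CPM in epithelium-like cells (12.2 to 18.46), 2.27-fold lower in the epithelium (1.78 to 2.92). In set 2 the values were 5.85 CPM (3.28 to 9.66, from 15 UMIs) and 21.7 CPM (18.7 to 25.04), 3.71-fold higher in the epithelium (2.19 to 6.76), and in set 3 they were 17.2 CPM (13.3 to 22.0) and 27.9 CPM (25.4 to 30.5), 1.62-fold higher (1.25 to 2.13). The CPM intervals of both classes did not overlap in any set. With cells thinned to equal depth, a *Bmp7* UMI was seen in 1.45%, 1.96% and 2.16% of epithelium-like cells in sets 1, 2 and 3. The thinned shares of fibroblast-like cells were 2.02%, 0.339% and 1.46%. The exact intervals of these shares overlapped between the classes in sets 1 and 3 and were apart in set 2. Leaving out the 1% of cells with most *Bmp7* UMIs moved the log2 ratio of set 3 from 0.69 to 1.38.

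The fibroblast-like part of *Bmp7* lay in cluster 1, and the order of the classes did not hold for each cluster. In set 3 the interval of cluster 1 (22.3 to 37.4 CPM) included the epithelium-like level of 27.9 CPM. In set 1 cluster 2, at 4.28 CPM, lay below epithelium-like cells, at 15.1 CPM. Cluster 1 of sets 1, 2 and 3 had 65.6, 10.6 and 29.1 CPM and cluster 2 had 4.28, 2.10 and 2.38 CPM, so cluster 1 was higher 15.4-fold in set 1 (9.11 to 27.9), 5.07-fold in set 2 (1.37 to 28.0, from 12 and 3 UMIs) and 12.2-fold in set 3 (4.53 to 46.2, from 61 and 4 UMIs). In the epithelium, cluster 5 (led by *Lamb3* and *Shh*) had 30.4, 20.5 and 30.2 CPM and cluster 4 (led by *Clca1*, *Wfdc3* and *Cldn3*) 8.59, 17.5 and 24.2 CPM. Cluster 4 was 3.54-fold lower than cluster 5 in set 1 (2.30 to 5.49), while in sets 2 and 3 the interval of the ratio included 1 (0.82 to 1.67 and 0.99 to 1.58-fold lower). Smooth muscle-like cells had 11.5, 4.23 and 2.49 CPM. The genes most like *Bmp7* over the 34 points were *Tfap2c* (r = 0.75), *Rin2* (r = 0.75) and *Fnbp1l* (r = 0.74).

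*Inhbb* (chromosome 1, 119415463 to 119422248), which encodes the beta B subunit shared by activins and inhibin B, was sparse, with 46, 67 and 197 UMIs in sets 1, 2 and 3. Endothelium-like cells had 23.8 CPM in set 1 (15.4 to 35.1, 25 UMIs), 11.7 CPM in set 2 (3.79 to 27.3, 5 UMIs) and 10.9 CPM in set 3 (4.99 to 20.7, 9 UMIs). Epithelium-like cells had 0.795, 5.05 and 10.4 CPM in sets 1, 2 and 3. Their level was below the endothelial interval in set 1 and inside it in sets 2 and 3. In set 3, 173 of the 197 UMIs were in epithelium-like cells, where the rate was 7.85-fold above fibroblast-like cells (3.30 to 24.5, the latter from 5 UMIs). Cluster 4 carried most of it, at 13.96 CPM in set 3 and 7.18 CPM in set 2, which was 2.04-fold (1.33 to 3.25) and 2.80-fold (1.27 to 6.83) above cluster 5. In set 1 cluster 4 had 1 UMI. Without the 1% of cells with most *Inhbb* UMIs the epithelial level of set 3 was 7.30 CPM. *Galnt18* (r = 0.70), *Kti12* (r = 0.68) and *Efna1* (r = 0.66) were the most alike.

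**Figure D1:**
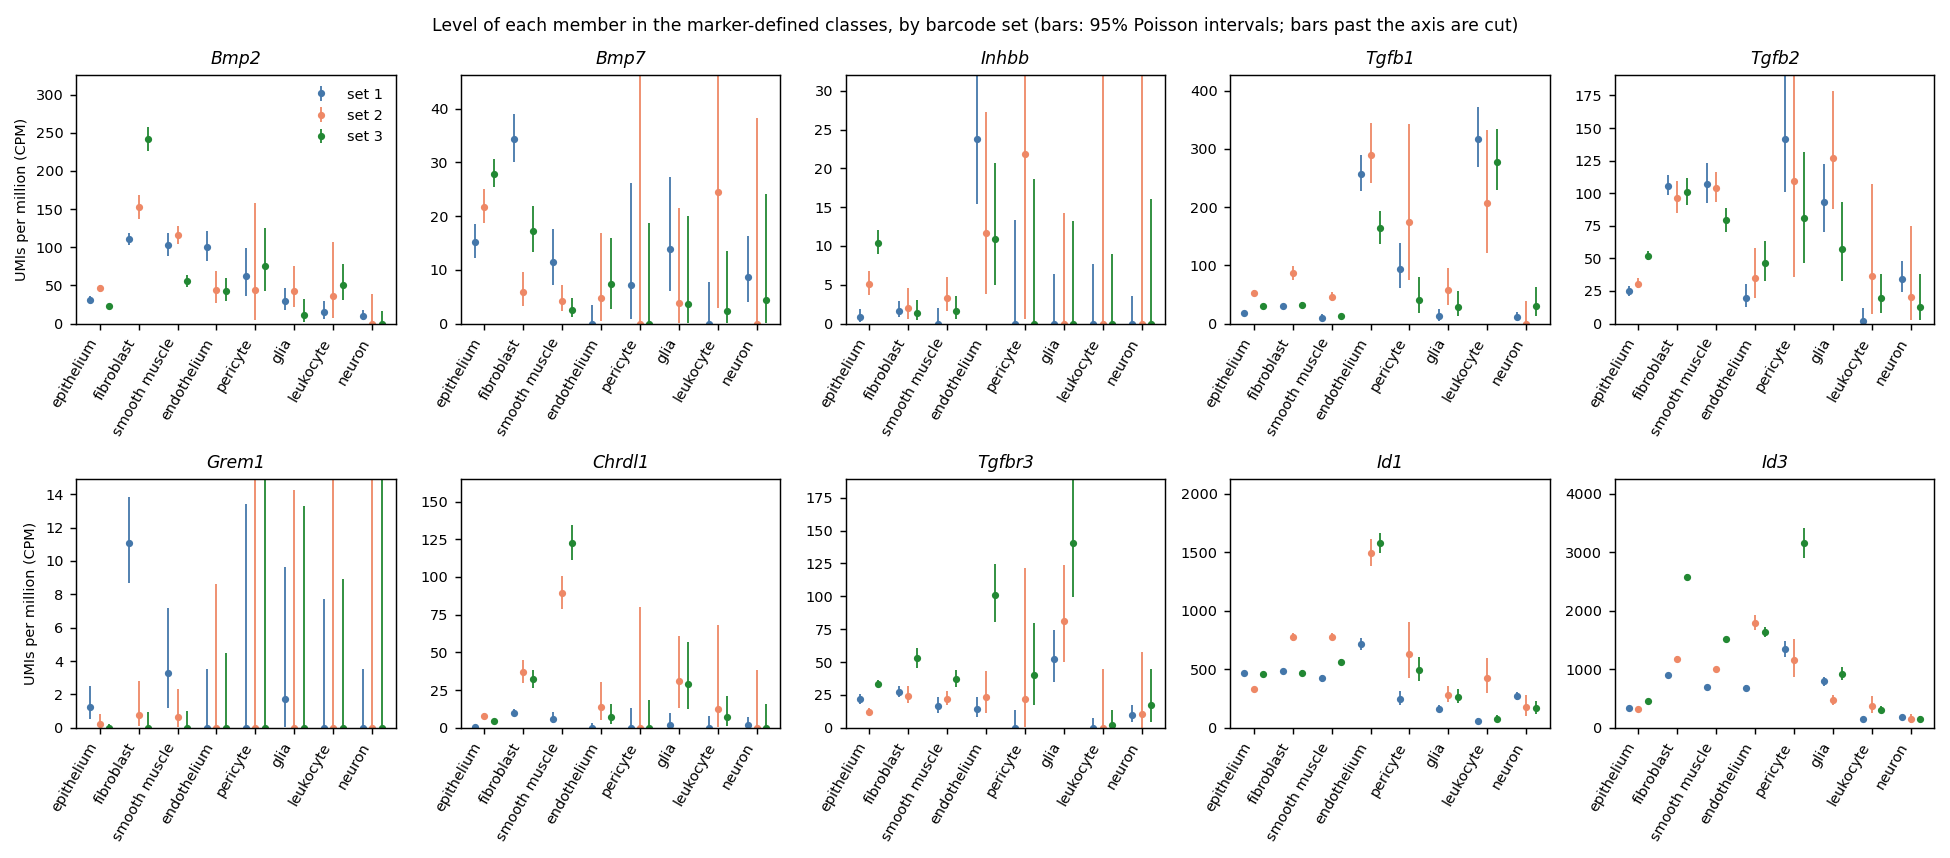
Level of each of the 10 genes in CPM (vertical axes, linear and different in each panel) in 8 cell classes, with 1 point for each barcode set and 95% Poisson intervals, which are cut where they pass an axis. *Bmp2* is highest in fibroblast-like cells in each set, *Tgfb1* lies at or above 164 CPM in endothelium- and leukocyte-like cells, *Chrdl1* reaches 89.1 and 122 CPM in smooth muscle-like cells of sets 2 and 3, and *Grem1* is highest in fibroblast-like cells of set 1, at 11.1 CPM.

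*Tgfb1* (chromosome 7, 25687002 to 25705077) encodes the TGF-beta ligand best known from immune and vascular cells, and the highest levels in each set were in leukocyte- and endothelium-like cells. Leukocyte-like cells had 317, 207 and 278 CPM in sets 1, 2 and 3 (intervals 269 to 372, 121 to 332 and 230 to 334). Endothelium-like cells had 257, 290 and 164 CPM (227 to 289, 241 to 345 and 137 to 194). The intervals of the 2 classes overlapped in sets 1 and 2, and leukocyte-like cells were above endothelium-like cells in set 3. Pericyte-like cells came next with 94.4, 174 and 40.5 CPM, from 26, 8 and 8 UMIs, and in set 2 their interval (75.3 to 344) overlapped both. Their interval was apart from that of fibroblast-like cells, next in order, in set 1 only.

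In the larger classes *Tgfb1* was lower. Fibroblast-like cells had 30.0, 86.3 and 31.3 CPM, epithelium-like cells 17.96, 52.3 and 29.6 CPM, and smooth muscle-like cells 9.88, 45.9 and 12.4 CPM in sets 1, 2 and 3. Smooth muscle-like cells were thus below fibroblast-like cells by 3.03-fold (1.87 to 5.22), 1.88-fold (1.52 to 2.34) and 2.51-fold (1.77 to 3.63). Among the epithelial clusters, cluster 4 was below cluster 5 in each set, by 2.32-, 2.64- and 2.36-fold. *Cd36* (r = 0.87), *Picalm* (r = 0.86) and *Fes* (r = 0.86) had the most similar rates.

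*Tgfb2* (chromosome 1, 186622787 to 186709697), a TGF-beta ligand known from mesenchyme, was higher in fibroblast- and smooth muscle-like cells than in epithelium-like cells in each set, although epithelium-like cells, the largest class by UMIs, held 52.6% of its UMIs in set 3. Fibroblast-like cells had 106, 96.4 and 101 CPM in sets 1, 2 and 3, and smooth muscle-like cells 107, 104 and 79.1 CPM. The 2 classes differed beyond their counting error only in set 3, where smooth muscle-like cells were 1.28-fold lower (1.09 to 1.49). Glia-like cells (93.6, 127 and 57.5 CPM) and pericyte-like cells (142, 109 and 81.0 CPM) had intervals that overlapped those of fibroblast-like cells in each set. Epithelium-like cells had 24.95, 30.7 and 52.0 CPM, which was 4.24-, 3.14- and 1.94-fold below fibroblast-like cells.

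The order of the epithelial clusters in *Tgfb2* turned between sets. Cluster 4 had 12.4, 21.0 and 71.8 CPM and cluster 5 had 55.3, 43.0 and 32.9 CPM in sets 1, 2 and 3, so cluster 4 was 4.45-fold lower in set 1 (3.18 to 6.30), 2.05-fold lower in set 2 (1.54 to 2.75) and 2.18-fold higher in set 3 (1.80 to 2.67). In set 3 the interval of cluster 4 (66.4 to 77.5 CPM) overlapped that of smooth muscle-like cells (70.2 to 88.8 CPM). The summed smooth muscle marker list stood at 229, 1134 and 510 CPM in cluster 4 and at 1036, 5282 and 4099 CPM in cluster 5, and its part in the *Tgfb2* levels was not tested. Cluster 3, led by *Lgals7* and *Serpinb5*, had 25.1 CPM in set 2 and 24.2 CPM in set 3, and only 3 cells in set 1. *Mesdc2* (r = 0.85), *Mrfap1* (r = 0.84) and *Fndc4* (r = 0.83) were the genes most alike over the 34 points.

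*Grem1* (chromosome 2, 113748675 to 113758648), encoding the BMP antagonist gremlin 1, was found almost entirely in set 1, with 91 UMIs in 30 of 766 cells, compared with 6 UMIs in 5350 cells of set 2 and 0 UMIs in 8360 cells of set 3. Of the 91 UMIs, 76 were in fibroblast-like cells (11.1 CPM, 8.71 to 13.8), with 6 in smooth muscle-like and 8 in epithelium-like cells. Fibroblast-like cells of set 3, at 0 of 3772224 UMIs, had a Poisson upper limit of 0.978 CPM, below the level of set 1.

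Most *Grem1* UMIs came from a few cells. Cluster 2 of set 1 had 64 UMIs in 12 of 148 cells (18.2 CPM) and cluster 1 had 12 UMIs in 9 of 201 cells (3.56 CPM), 5.12-fold lower in cluster 1 (2.74 to 10.4). Without the 1% of fibroblast-like cells with most *Grem1* UMIs the level was 4.28 CPM in place of 11.1 CPM. It was 6.70 CPM with cells classed one by one, and 0 both after thinning to 900 UMIs per cell and without integration, which left 6 fibroblast-like cells in set 1. *Col8a2* (r = 0.88), *Dcn* (r = 0.70) and *Egfl6* (r = 0.70) were most alike, over points of which those of sets 2 and 3 were at or near 0 for *Grem1*.

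*Chrdl1* (chromosome X, 143285674 to 143394263) encodes chordin-like 1, another secreted BMP antagonist. In smooth muscle-like cells it stood at 6.04 CPM in set 1 (3.02 to 10.8), 89.1 CPM in set 2 (78.9 to 100.3) and 122 CPM in set 3 (111 to 134). Fibroblast-like cells had 9.74, 36.7 and 32.1 CPM. Smooth muscle-like cells were 2.43-fold higher in set 2 (1.91 to 3.104) and 3.81-fold higher in set 3 (3.11 to 4.70), while in set 1 the interval included 1 (0.847 to 3.39-fold lower). The size of the ratio changed with the clustering and the filter on cells. At resolution 1.0 the log2 ratio was 0.40 in set 2 and 0.70 in set 3 in place of 1.28 and 1.93. At resolution 0.5 with at least 500 genes required of a cell, it was 0.22 in set 2 and 1.52 in set 3, and with cells classed one by one 0.75 in set 2 and 1.92 in set 3. A *Chrdl1* UMI was seen in 7.29%, 14.5% and 18.04% of smooth muscle-like cells, and after thinning in 1.08%, 7.54% and 8.48%, compared with 0%, 0% and 1.19% of leukocyte-like cells (0 of 38, 0 of 23 and 2 of 168, with exact 95% intervals up to 9.25%, 14.8% and 4.23%), so that the shares were apart beyond counting error in set 3 only. The lower summed smooth muscle list of set 1 lies beside its lower *Chrdl1*, and its part in that level was not tested.

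Within fibroblast-like cells, cluster 2 had 11.7, 53.8 and 53.1 CPM of *Chrdl1*, compared with 7.72, 15.04 and 15.3 CPM in cluster 1. In set 1 the intervals overlapped (8.39 to 15.9 in cluster 2 and 5.04 to 11.3 in cluster 1). Cluster 1 was 3.58-fold lower in set 2 (2.09 to 6.45) and 3.47-fold lower in set 3 (2.30 to 5.38). Clusters 3 and 4 of the epithelium had at most 2.87 CPM, whereas cluster 5 had 1.08, 15.9 and 15.3 CPM. Cluster 5 also carried 6 of 8 smooth muscle markers, and its summed smooth muscle list was 1036, 5282 and 4099 CPM in sets 1, 2 and 3, compared with 229, 1134 and 510 CPM in cluster 4. The part of smooth muscle RNA in the *Chrdl1* level of cluster 5 was not tested. *Flnc* (r = 0.87), *1500015O10Rik* (r = 0.86) and *Nptx2* (r = 0.83) followed *Chrdl1* most closely.

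*Tgfbr3* (chromosome 5, 107106567 to 107289629), which encodes betaglycan, a co-receptor that presents TGF-beta 2 and also binds inhibin, was highest in glia-like cells in each set. They had 52.0, 81.0 and 140 CPM in sets 1, 2 and 3 (35.1 to 74.3, 50.1 to 124 and 99.7 to 192), above every other named class in sets 1 and 2 beyond the intervals of those with at least 10 UMIs. In set 3 the interval overlapped that of endothelium-like cells, which had 101 CPM (80.2 to 125), as opposed to 14.3 and 23.4 CPM in sets 1 and 2. Fibroblast-like cells had 27.5, 24.6 and 52.8 CPM, smooth muscle-like cells 16.5, 22.1 and 37.3 CPM, and epithelium-like cells 21.6, 12.4 and 33.4 CPM.

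Leukocyte-like cells were at the other end of *Tgfbr3*, with 0, 0 and 1 UMI in the 3 sets. Epithelial clusters changed places, as cluster 4 was 1.94-fold above cluster 5 in set 1 (1.24 to 3.16; 25.3 and 13.01 CPM) and 2.72-fold below it in set 3 (2.22 to 3.32; 20.7 and 56.3 CPM), and in set 2 their levels were 12.6 and 12.8 CPM. *Stard13* (r = 0.80), *Ikzf5* (r = 0.80) and *Lamc1* (r = 0.79) were most alike.

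*Id1* (chromosome 2, 152736251 to 152737410) was highest in endothelium-like cells, with 719 CPM in set 1 (668 to 772), 1495 CPM in set 2 (1381 to 1615) and 1577 CPM in set 3 (1493 to 1665), above every other class in each set. Among single clusters of set 1, fibroblast-like cluster 1 was higher, at 845 CPM (814 to 877). An *Id1* UMI was seen in 78.4%, 90.6% and 88.3% of endothelium-like cells, and after thinning in 36.1%, 69.7% and 66.5%, compared with 2.63%, 21.7% and 3.57% of leukocyte-like cells. In set 1 the thinned share was close to that of epithelium-like cells (35.5%). Fibroblast-like cells had 484, 773 and 470 CPM, smooth muscle-like cells 424, 778 and 560 CPM, and epithelium-like cells 470, 329 and 463 CPM in sets 1, 2 and 3. Epithelium-like cells were 2.35-fold below fibroblast-like cells in set 2 (2.22 to 2.49), and in sets 1 and 3 the intervals of the ratio included 1. These class values cover unlike clusters. Fibroblast-like clusters 1 and 2 had 845 and 138 CPM in set 1 and 658 and 235 CPM in set 3. Epithelium-like clusters 4 and 5 had 161 and 853 CPM in set 3. Unnamed cluster 10, not counted as epithelium-like, had 190 CPM in set 1. Without integration, when set 2 had 417 epithelium-like cells, its log2 ratio was -2.24 in place of -1.23. Leukocyte-like cells were lowest in sets 1 and 3, with 58.4 and 77.4 CPM, but in set 2 they had 427 CPM (297 to 594, 35 UMIs). In set 2 a thinned *Id1* UMI was seen in 22.1% of epithelium-like cells and in 21.7% of those leukocyte-like cells, the latter from 5 of 23 cells (7.46% to 43.7%).

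*Id3* (chromosome 4, 136143822 to 136145392) had another order, led by pericyte-like cells in sets 1 and 3 and by endothelium-like cells in set 2. Pericyte-like cells had 1347, 1155 and 3150 CPM in sets 1, 2 and 3, fibroblast-like cells 910, 1178 and 2584 CPM, smooth muscle-like cells 692, 1007 and 1514 CPM, and endothelium-like cells 672, 1796 and 1638 CPM. Epithelium-like cells had 336, 315 and 451 CPM, which was 2.71-fold (2.58 to 2.84), 3.74-fold (3.55 to 3.94) and 5.73-fold (5.56 to 5.91) below fibroblast-like cells. In set 1 this rests on fibroblast-like cluster 1, since cluster 2 had 259 CPM (243 to 277), below epithelium-like cells. Neuron-like cells, at 185, 145 and 148 CPM, and leukocyte-like cells, at 148, 378 and 310 CPM, were below epithelium-like cells in sets 1 and 3, and in set 2 only neuron-like cells were.

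The 250 bases before and 50 bases after the start of *Id3* (RefSeq, GRCm38.p6, chr4:136143572-136143871, plus strand) are shown because *Id3* was the target that was lower in epithelium- than in fibroblast-like cells by at least 2-fold in each set, and BMP signals are known to induce its transcription. Capitals mark GTCT or its reverse complement AGAC, the letters SMAD3 and SMAD4 are known to bind, and TATAA.
Id3: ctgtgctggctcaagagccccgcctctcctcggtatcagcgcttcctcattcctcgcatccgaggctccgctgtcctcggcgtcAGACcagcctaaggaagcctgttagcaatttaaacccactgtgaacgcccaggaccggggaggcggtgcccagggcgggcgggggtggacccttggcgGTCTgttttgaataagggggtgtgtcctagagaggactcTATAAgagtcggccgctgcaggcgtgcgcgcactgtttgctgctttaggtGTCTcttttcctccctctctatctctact
The window held 3 matches of GTCT on either strand and 1 of TATAA. A match of GTCT was present in 88.0% of 32851 windows of the same length at gene starts and of TATAA, or its reverse complement TTATA, in 24.9%. The palindrome GGCGCC, known from BMP-responsive elements, was present in 11.9% of all windows and not in these 300 bases. A window was at hand for 5 of the 10 genes (*Inhbb*, *Tgfb1*, *Tgfb2*, *Grem1* and *Id3*). Among these GGCGCC occurred once, in that of *Grem1*. Such matches describe letters only.

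*Id1* and *Id3* both followed the fibroblast clusters in which *Bmp2* and *Bmp7* differed. In set 1, cluster 1 had 845 CPM of *Id1* (814 to 877) and cluster 2 had 138 CPM (126 to 151), a difference of 6.14-fold (5.57 to 6.77). *Id3* stood at 1587 and 259 CPM, 6.12-fold apart (5.70 to 6.57). In set 2 the clusters were close, with *Id1* at 834 and 724 CPM (1.15-fold, 1.05 to 1.26) and *Id3* at 1475 and 943 CPM (1.56-fold, 1.45 to 1.68). In set 3 *Id1* had 658 and 235 CPM (2.80-fold, 2.50 to 3.13) and *Id3* 3129 and 1903 CPM (1.64-fold, 1.58 to 1.72). Cluster 1 was therefore above cluster 2 for both targets and, in the same direction, for *Bmp2* and *Bmp7* in each set, while *Grem1* in set 1 and *Chrdl1* in sets 2 and 3 were higher in cluster 2.

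**Figure D2:**
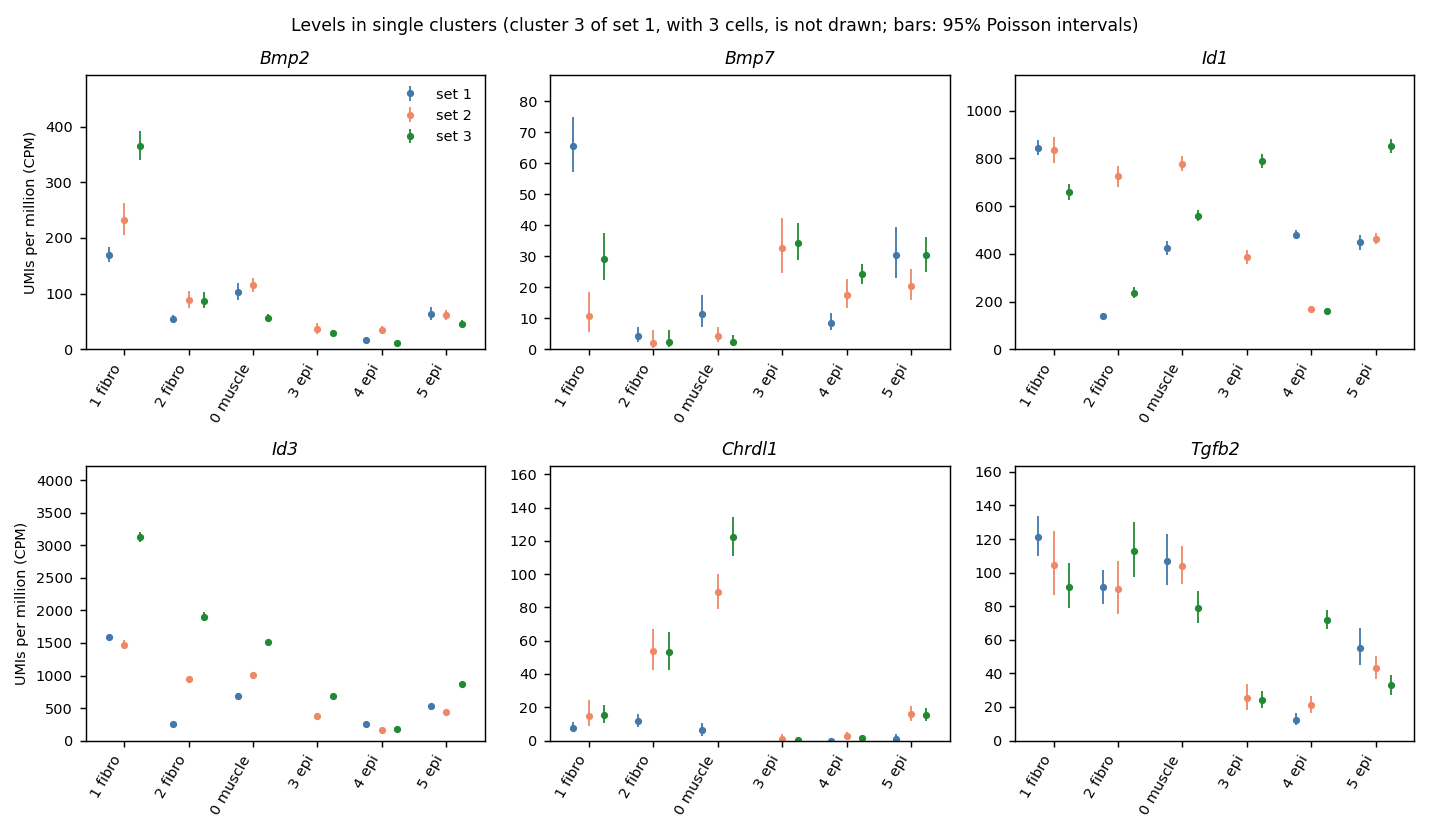
Levels of 6 of the genes in CPM (vertical axes, linear) in the 2 fibroblast-like clusters, the smooth muscle-like cluster and the 3 epithelium-like clusters, with 1 point for each barcode set and 95% Poisson intervals, cluster 3 of set 1 not drawn. *Bmp2*, *Bmp7*, *Id1* and *Id3* are higher in cluster 1 than in cluster 2 in each set, *Chrdl1* is higher in cluster 2 in sets 2 and 3, and *Tgfb2* in cluster 4 stands at 71.8 CPM in set 3 compared with 12.4 and 21.0 CPM in sets 1 and 2.

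The clusters of the epithelium differed in the *Id* genes as well. *Id1* had 167 and 161 CPM in cluster 4 of sets 2 and 3, compared with 462 and 853 CPM in cluster 5 and 387 and 789 CPM in cluster 3. Cluster 4 was 2.77-fold (2.52 to 3.05) and 5.30-fold (4.98 to 5.64) below cluster 5 in these sets, whereas in set 1 they had 480 and 448 CPM and the interval of the ratio included 1. *Id3* was lower in cluster 4 in each set, by 2.08-, 2.77- and 4.86-fold. The summed smooth muscle list, given above, was also lower in cluster 4 than in cluster 5 in each set, and its part in these differences was not tested. Leading genes of cluster 4 included some of luminal and secretory cells (*Cldn3*, *Tspan1*, *Clca1*), beside others such as *Asprv1*, *Upk3bl* and *Cyp2f2*. Those of cluster 5 included genes of basal cells (*Lamb3*, *Dst*), beside *Shh* and *Nrg1*. *Lamb3* was also a leading gene of cluster 3.

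Because enzymatic dissociation is known to induce early response genes, and *Id1* and *Id3* respond to serum and stress too, the summed level of 8 of 10 listed early response genes with a row (*Jun*, *Junb*, *Fosb* and *Atf3* among them) was set beside them. In fibroblast-like cells it was 9450, 3548 and 8457 CPM in sets 1, 2 and 3. In set 1 it was 12622 CPM in cluster 1 and 6407 CPM in cluster 2, in set 2 4460 and 2828 CPM, and in set 3 8448 and 8468 CPM. In sets 1 and 2 the list was thus higher in cluster 1, the same direction as *Id1* and *Id3*, and in set 3 it was almost equal. In cluster 4 and cluster 5 of the epithelium the list had 6044 and 6199 CPM in set 1, 2052 and 2420 CPM in set 2, and 2997 and 3133 CPM in set 3. Endothelium-like cells, highest in *Id1*, had 6834, 2754 and 5019 CPM, below fibroblast-like cells in each set. The part of the early response in the *Id1* and *Id3* levels was not tested.

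**Figure D3:**
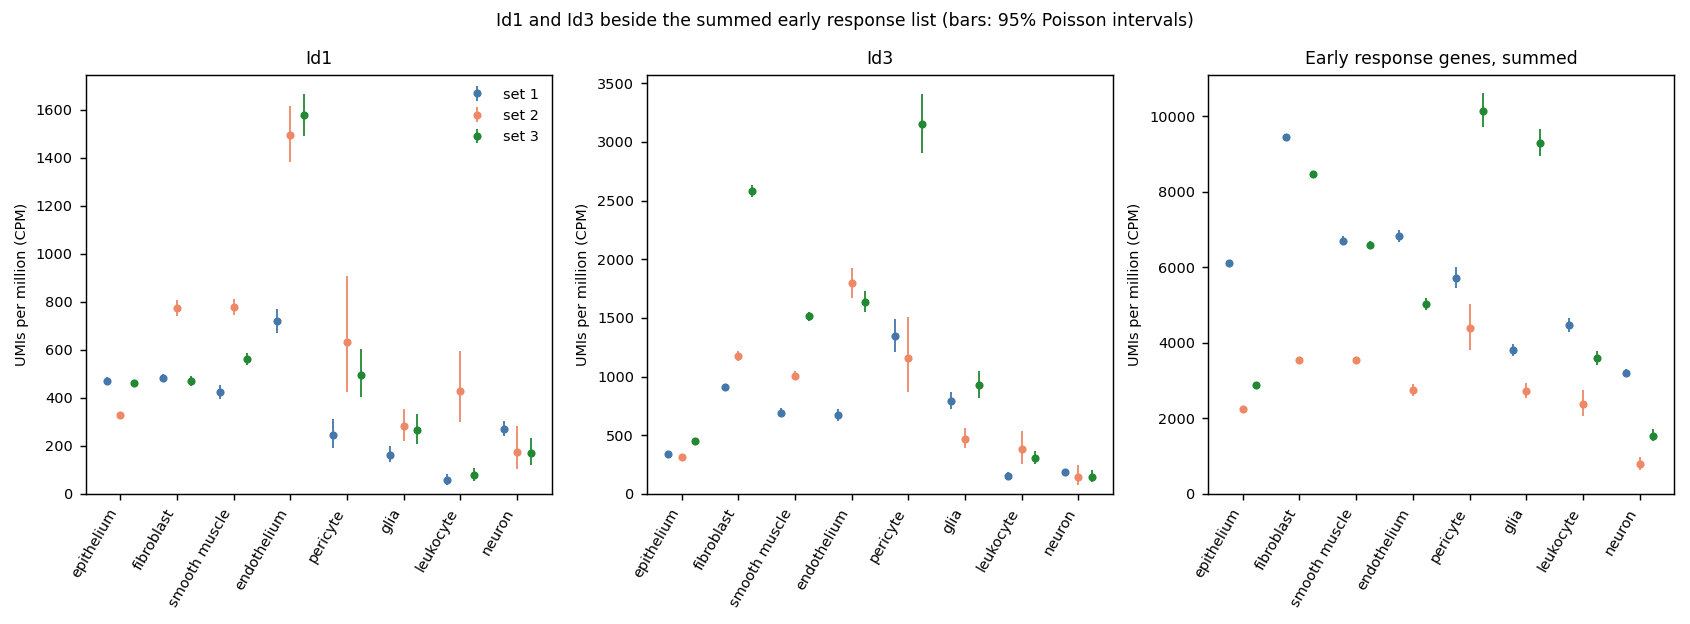
Levels of *Id1*, *Id3* and the summed early response list in CPM (vertical axes, linear) in 8 cell classes, with 1 point for each barcode set and 95% Poisson intervals. Endothelium-like cells are highest in *Id1* in each set but not in the early response list, where fibroblast-like cells of set 1 have 9450 CPM.

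*Id1* and *Id3* were the pair of members with the most similar rates over the 34 clusters and sets (r = 0.70), followed by *Bmp2* and *Id3* (r = 0.67). Outside the list, *Tspan9* (r = 0.80), *Luzp1* (r = 0.73) and *Xpr1* (r = 0.72) were most like *Id1*, and *Rbm39* (r = 0.89), *Rsrc2* (r = 0.82) and *Igfbp7* (r = 0.81) most like *Id3*. The least alike pair was *Tgfb1* and *Tgfb2* (r = -0.44). These values are descriptions over points from 3 libraries.

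Counted over the list, 9 of the 10 genes had at least 20 UMIs in epithelium- and fibroblast-like cells together in each set, the exceptions being *Inhbb* in set 1 and *Grem1* in sets 2 and 3. In set 1, 0 were at least 2-fold higher in epithelium-like cells and 6 at least 2-fold lower (*Bmp2*, *Bmp7*, *Tgfb2*, *Grem1*, *Chrdl1* and *Id3*), where 14.7% and 21.9% of 7159 genes were. For *Chrdl1* this rests on 2 epithelial UMIs, which were set to 3. With cells of set 1 thinned to 900 UMIs, 3 in place of 6 were lower. In set 2, 2 were higher (*Bmp7*, *Inhbb*) and 5 lower (*Bmp2*, *Tgfb2*, *Chrdl1*, *Id1*, *Id3*), where 16.8% and 18.2% of 6392 genes were. Only 1 in place of 2 was higher after thinning, with at least 500 genes per cell, or with cells classed one by one. In set 3, 1 was higher (*Inhbb*) and 3 were lower (*Bmp2*, *Chrdl1*, *Id3*), where 22.6% and 20.9% of 6982 genes were. The median log2 ratio of the members was -1.44, -1.23 and -0.66, compared with -0.11, -0.03 and 0.18 over all genes compared. *Tgfbr3* in set 2 (log2 ratio -0.99) and *Tgfb2* in set 3 (-0.96) lay just outside the 2-fold limit, and *Bmp7* in set 1 (-1.18) just inside it.

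Between smooth muscle- and fibroblast-like cells, 9, 8 and 8 genes could be compared in sets 1, 2 and 3. In set 1, 0 were at least 2-fold higher in smooth muscle-like cells and 3 lower (*Bmp7*, *Tgfb1*, *Grem1*), in set 2 1 was higher (*Chrdl1*) and 0 lower, and in set 3 1 was higher (*Chrdl1*) and 3 lower (*Bmp2*, *Bmp7*, *Tgfb1*). Over all genes compared, 4.89%, 9.61% and 12.4% were higher and 8.92%, 9.90% and 14.8% lower. In set 1, thinning gave 1 higher and 1 lower gene, and without integration, with 4 smooth muscle-like cells, 0 were lower. At resolution 1.0, 0 were higher in sets 2 and 3. In set 2, 0 were also higher with at least 500 genes per cell or with cells classed one by one. *Bmp2* itself was close to fibroblast-like cells in set 1 (1.07-fold lower, 0.914 to 1.27) and 4.33-fold lower in set 3 (3.71 to 5.06).

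Between fibroblast-like clusters 1 and 2, 4 of the 9 genes compared in set 1 were at least 2-fold higher in cluster 1 (*Bmp2*, *Bmp7*, *Id1*, *Id3*) and 2 lower (*Grem1*, *Tgfb1*), where 18.6% and 8.94% of all genes were. In set 2 it was 1 higher (*Bmp2*) and 1 lower (*Chrdl1*) of 7, where 3.28% and 4.50% were, and in set 3 3 higher (*Bmp2*, *Bmp7*, *Id1*) and 1 lower (*Chrdl1*) of 8, where 4.67% and 5.36% were. Between epithelium-like clusters 4 and 5, 0 of 7, 1 of 9 and 2 of 9 were higher in cluster 4 and 5, 5 and 6 lower, where 11.2%, 5.75% and 12.2% of all genes were higher and 16.1%, 12.2% and 12.6% lower.

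**Figure D4:**
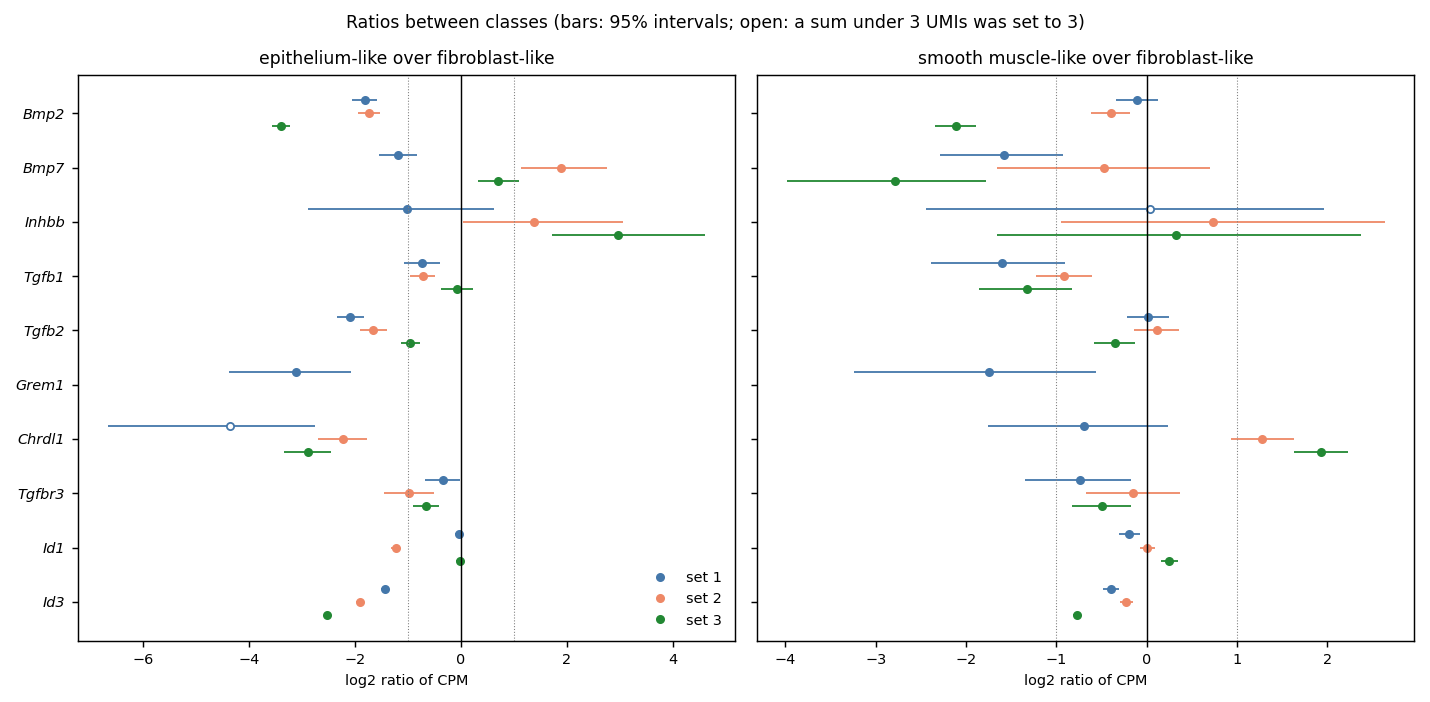
Log2 ratio of CPM (horizontal axes) of each gene between epithelium- and fibroblast-like cells (left) and between smooth muscle- and fibroblast-like cells (right), with 1 point for each barcode set and 95% intervals, open where a sum under 3 UMIs was set to 3, and dotted lines at 2-fold. *Bmp2* and *Id3* lie left of the lower line on the left in each set, *Bmp7* lies on both sides of 0, and *Chrdl1* is the gene right of the upper line on the right, in sets 2 and 3.

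The other genes of the pathway were taken from a list of 93, of which 46 had a row and 35 or 36 had at least 20 UMIs in epithelium- and fibroblast-like cells. The antagonists and carriers were the most uniform role. Of those compared, 7 of 8, 6 of 7 and 8 of 8 were at least 2-fold lower in epithelium-like cells in sets 1, 2 and 3, and 0 were higher, where 21.9%, 18.2% and 20.9% of all genes were lower and 14.7%, 16.8% and 22.6% higher. *Nbl1*, a BMP antagonist of the DAN family, had 295, 359 and 716 CPM in fibroblast-like cells, as against 47.2, 91.0 and 131 CPM in epithelium-like cells. *Ltbp4*, which binds latent TGF-beta in the matrix, had 255, 411 and 494 CPM in fibroblast-like cells, as against 89.0, 105 and 67.9 CPM in epithelium-like cells. *Htra1*, a secreted protease, was highest in endothelium-like cells of set 1, at 470 CPM.

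Target genes other than *Id1* and *Id3* were counted in the same way, with 7, 8 and 8 of 11 lower in epithelium-like cells by at least 2-fold and 1, 0 and 1 higher, beside the same shares of all genes. Their median log2 ratio was -1.84, -1.36 and -2.43, compared with -0.11, -0.03 and 0.18 over all genes. *Thbs1*, an activator of latent TGF-beta, had 495, 1473 and 1904 CPM in fibroblast-like cells, *Pmepa1*, a feedback inhibitor of SMAD signals, had 401, 1105 and 796 CPM, and *Fn1*, encoding fibronectin, 532, 286 and 118 CPM. In set 1 *Fn1*, *Thbs1* and *Pmepa1* were lower in fibroblast-like cluster 1 than in cluster 2, with log2 ratios of -2.71, -2.63 and -1.52, where *Id1* and *Id3* were higher. In sets 2 and 3 their ratios were -0.41 and -0.41, -0.39 and -1.03, and 0.06 and 0.04. Of the targets compared between these clusters, 3 of 11, 1 of 9 and 1 of 9 were at least 2-fold higher in cluster 1 in sets 1, 2 and 3 and 7, 2 and 3 lower, where 18.6%, 3.28% and 4.67% of all genes were higher and 8.94%, 4.50% and 5.36% lower.

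Ligands had 1, 1 and 1 higher and 1, 2 and 2 lower in epithelium-like cells of 4, 5 and 4 compared, and receptors 1, 0 and 1 higher and 2, 3 and 3 lower of 7 in each set. SMADs and their regulators had 0 higher in each set and 1 of 6, 0 of 5 and 3 of 5 lower, with median log2 ratios of -0.78, -0.77 and -1.13. *Bmp3*, a ligand that opposes other BMPs, was higher in epithelium-like cells (20.5, 23.6 and 26.6 CPM) than in fibroblast-like cells (4.51, 1.56 and 1.33 CPM), with 54.6, 124 and 152 CPM in neuron-like cells. *Gdf11* was higher in fibroblast-like cells, at 18.6, 13.7 and 21.7 CPM compared with 7.95, 2.41 and 2.16 CPM, and *Gdf15*, a stress-induced member of the family, reached 583 CPM in leukocyte-like cells of set 3. *Eng*, the endothelial co-receptor endoglin, had 333, 467 and 410 CPM in endothelium-like cells and at most 4.13 CPM in epithelium-like cells. *Bmpr2*, the type II BMP receptor, had 123, 306 and 256 CPM in endothelium-like cells, where *Id1* was also highest, and 65.0, 100.3 and 93.8 CPM in fibroblast-like cells. *Tgfbr1*, the type I TGF-beta receptor, ranged from 33.2 to 62.1 CPM in epithelium-, fibroblast- and smooth muscle-like cells. Between epithelium- and fibroblast-like cells, the log2 ratio of the SMAD co-repressor *Ski* was -0.95, -0.92 and -1.13, that of the co-repressor *Skil* 0.16, -0.97 and -1.80, and that of the BMP effector *Smad1* -0.66, -0.77 and -0.20. All roles together, 3, 1 and 3 of 36, 35 and 35 genes were at least 2-fold higher in epithelium-like cells and 18, 19 and 24 lower, where 14.7%, 16.8% and 22.6% of all genes were higher and 21.9%, 18.2% and 20.9% lower. Their median log2 ratio was -1.03, -1.34 and -1.80, compared with -0.11, -0.03 and 0.18 over all genes.

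**Figure D5:**
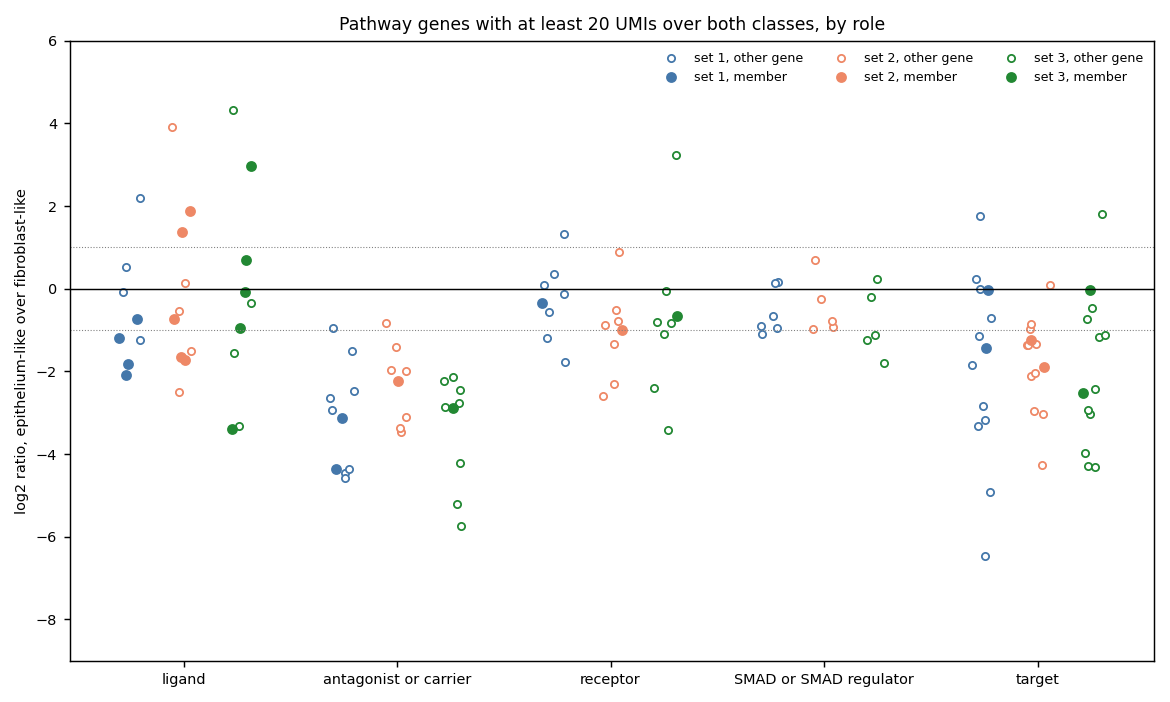
Log2 ratio between epithelium- and fibroblast-like cells (vertical axis) of each pathway gene with at least 20 UMIs in both classes together, by role and barcode set, with the 10 members filled and other genes open, and dotted lines at 2-fold. Every antagonist or carrier lies below 0 in each set, and among ligands *Bmp3* lies highest in each set, above 2, while *Tgfb2*, *Gdf11* and *Bmp2* lie lowest in sets 1, 2 and 3.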

How the data were processed

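The authors deposited 1 table of log-normalised single cell expression for 3 libraries. Per the labels and the study's methods, reads of a 10x 3' kit (version v3 in the labels, v2 in the methods) were aligned to mm10 with added transgenes by Cell Ranger 3.1.0, and cells were filtered in Seurat. The deposited values are the natural log of 1 plus 10000 times a cell's UMI share. All 11120281 values above 0 gave whole UMIs (tolerance 0.05), so UMIs, and not the logs, were summed. Of 9784 rows 9781 were kept; 13 carried date names from a spreadsheet and were left in. Rows used here cover part of the genome and hold 49.4% to 52.7% of each set's UMIs, and genes without a row were not analysed here.

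The study's text states a cell number for each age. That for E18.5, 766, equals the cells of set 1, and those for P14 and P35 differ from the cells of sets 2 and 3. A matching number is not a label, and sets were not assigned by it. Cells were clustered after integration of the 3 sets (Seurat 5.3.0, R 4.3.3; 2000 features without the pathway genes and EGFP, 30 components, resolution 0.5, cell cycle scores regressed out) and named by marker lists. CPM have exact 95% Poisson intervals, shares exact Clopper-Pearson intervals, and ratios exact binomial intervals, with sums of 0 to 2 UMIs set to 3. A ratio was counted with at least 20 UMIs in both classes together and called at 2-fold. For shares, cells were thinned to 900 UMIs, leaving out 7, 342 and 693 cells of sets 1, 2 and 3. Multiplets had been removed by the authors, and Scrublet (scanpy 1.11.5) marked 3, 0 and 1 more, which were kept. Scripts were tested on simulated data. Likeness was Pearson's r of log2(CPM + 5) centred within each set, over genes with at least 200 UMIs, and the 3 most alike genes were named; other pathway genes named were the 3 of each role with the highest CPM in any named class. The members and lists were chosen with earlier results of these data known.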

Additional observations from a re-analysis of the deposited data

Results flagged for a closer look

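Each of the following ratios had 1 sign in one barcode set and the other sign in another. The difference between sets was not tested, since each set is 1 library, and the sets differed in depth per cell (medians of 19357, 1738 and 1788 UMIs). *Bmp7* had a log2 ratio of epithelium- over fibroblast-like cells of -1.18, 1.89 and 0.69 in sets 1, 2 and 3. As given above, this order did not hold for fibroblast-like cluster 2 of set 1 or cluster 1 of set 3. The thinned shares of the classes overlapped in sets 1 and 3. *Id1* had a log2 ratio of smooth muscle- over fibroblast-like cells of -0.19, 0.01 and 0.25, but the value of set 1, from 96 cells whose name is weak, was 0.75 with at least 500 genes per cell and 0.094 with cells classed one by one. Between fibroblast-like clusters 1 and 2, *Tgfb1* had log2 ratios of -1.06, 0.17 and 0.64 and *Tgfb2* of 0.41, 0.21 and -0.30. Between epithelium-like clusters 4 and 5, *Tgfb2* had log2 ratios of -2.15, -1.04 and 1.13 and *Tgfbr3* of 0.96, -0.02 and -1.44.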

How the results depend on the processing

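No paired analysis was possible because no label ties barcode endings to replicates and each set is 1 library. Of 120 recomputed counts of members at least 2-fold apart, 106 stayed within 1.5 times their value. Of the recomputed levels of members, 320 were marked as moved and 880 as the same. Leaving out the 1% highest cells moved 79 levels and kept 41, and thinning moved 56 and kept 64. Of the recomputed ratios, 120 were marked as moved, 6 as reversed and 553 as the same. The intervals of the levels cover counting error only, and not such changes. After thinning to 900 UMIs, the count higher in fibroblast- than epithelium-like cells in set 1 was 3 in place of 6, that higher in epithelium-like cells in set 2 was 1 in place of 2, and for smooth muscle- against fibroblast-like cells 1 was lower in place of 3 and 1 higher in place of 0 in set 1, and 1 lower in place of 0 in set 2. With at least 500 genes per cell, and likewise with cells named one by one, 1 was higher in epithelium-like cells in set 2 in place of 2 and 0 higher in smooth muscle-like cells in set 2 in place of 1. At resolution 1.0, 0 were higher in smooth muscle-like cells in set 2 and in set 3 in place of 1 each, and 1 was lower in set 2 in place of 0. Without integration 0 were lower in smooth muscle-like cells in set 1 in place of 3, and without the 1% highest cells 2 were higher in epithelium-like cells in set 3 in place of 1. In set 1 the epithelium over fibroblast log2 ratio turned for *Tgfb1* (0.33 thinned, 0.049 as a mean over cells) and *Tgfbr3* (0.16 thinned), and the smooth muscle over fibroblast ratio for *Id1* (0.75 with 500 genes, 0.094 one by one) and *Id3* (0.27 with 500 genes). The causes were not tested. Of the ratios whose interval excluded 0, 22 of 24, 16 of 18, 21 of 21 and 22 of 22 kept their sign under each alternative that gave a value for epithelium over fibroblasts, smooth muscle over fibroblasts, clusters 1 over 2 and clusters 4 over 5. The cluster ratios were recomputed only under the alternatives that keep the clusters (doublet scores, thinning, means over cells, 1% highest cells left out), none of which clustered anew. Joining unnamed clusters 9 or 10 to a class, and the cluster ratios under alternatives, were added after seeing the data. The planned removal of clusters led by mitosis genes was not run, since none is in a named class and class values could not change. The likeness values and set totals, which include cluster 9, were not recomputed without it. Sparse genes (*Inhbb*, *Grem1*) are limited by their UMIs.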
